A study of Homo sapiens with 6 samples.

Results

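The BCL2 family was represented by 10 genes: PMAIP1, BBC3, BCL2L11, BID, BAD and BIK of the BH3-only class, the pore formers BAX and BAK1, and the survival genes MCL1 and BCL2L1. They were chosen by name, as the probe sets whose platform annotation gives exactly 1 gene symbol equal to one of these names, and all 10 were found among the 18132 genes measured, with 43 probe sets. RNA came from cells under the label TPC-1, an established line of human papillary thyroid cancer cells, infected with lentivirus. The lentivirus carried an shRNA against FAM60A (titled shFAM60A) in 3 samples and a control shRNA (titled shControl) in the other 3, with 1 Affymetrix array for each sample. Both groups thus went through lentiviral delivery of an shRNA, no uninfected cells were analysed here, and the labels name neither the shRNA sequence nor the time after infection. The genotype label of the first group reads FAM60A1 knockdown, and DLD1, a line of colorectal cancer, is named in the extraction protocol in place of TPC-1. The design calls the samples independent but mentions no separate cultures, so each p-value reflects only how far these samples spread, which may be technical.

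Proteins of the BCL2 family decide whether the outer membrane of mitochondria is opened during apoptosis. BAX and BAK1 form the pores through which cytochrome c leaves, MCL1 and BCL-XL (the long product of BCL2L1) hold them in check, and BH3-only proteins either neutralise the survival proteins or activate the pore formers directly. Many BH3-only genes are induced by stress, while BAD and BID are controlled to a large part at the level of the protein, by phosphorylation and by cleavage.

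Each value is a log2 expression value relative to the median of the same probe set over the 6 arrays, so it tells how arrays differ and not how abundant a transcript is. Only a coarse class of the level (2 to 4, 4 to 8, or 8 and more on the log2 scale) could be read from the rounding of the deposited values. Another 15 probe sets lay below 2 and 153 could not be placed, none of them among the 43. Those without a class include 3 of 5 for GDF15, 1 of 2 for LGR5 and the only one for ASCL2. A class could be read only where at least 4 of the 6 values lay within 1 of the median, so a missing class does not mean a low level. The lowest class held 16 of 17 control tags that have no target in human RNA. SINHCAF, the current symbol of FAM60A, had values of 0.63, 0.57 and 0.60 in the arrays labelled shFAM60A, against -0.58, -0.66 and -0.68 in the arrays labelled shControl. The targeted transcript was therefore higher under the shRNA that names it, by 1.24 on the log2 scale (SE 0.038, limma adjusted p = 1.08e-06, n = 3 per group; two-sided exact permutation p = 0.1, the smallest that 3 against 3 arrays allow). For this reason the groups are called by their labels, and every rise or fall is one in the arrays labelled shFAM60A relative to those labelled shControl. Whether the labels were exchanged was not tested, and if they were, every rise below would be a fall and every fall a rise.

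Intestinal marker genes moved with the labels as well. Of 10 intestinal marker genes measured, 6 rose, with the smallest p for LGR5, ASCL2 and CDX2, and 1 fell (TFF3). Over all genes 19.8% were higher and 25.0% lower. The mean value of the 10 intestinal genes ran from 0.361 to 0.365 in arrays labelled shFAM60A, against -0.400 to -0.367 in arrays labelled shControl. Of 9 thyroid markers, 0 rose and 1 fell (HHEX), both below the shares of all genes. The mean of these thyroid markers ran from -0.093 to -0.046 in arrays labelled shFAM60A and from 0.052 to 0.071 in arrays labelled shControl. Among those 9 thyroid genes, 8 had no probe set in the level class of 8 and more, and 2 of the 9, TSHR (the thyrotropin receptor) and DUOX2, had all their probe sets in the lowest class. The only thyroid gene with a probe set in that class was DIO1, with 1 of its 7. In the intestinal list 7 of 10 genes had no probe set in the class of 8 and more, and 2 had all their probe sets below 4. Those 7 include ASCL2, which has no class, and LGR5, with 1 of 2 probe sets unplaced, so their levels cannot be called low. CDX2 and KRT20 had their only probe set in the class of 8 and more, and CDH17 had 2 of 4 there. Of 5 leukocyte markers, 1 rose (CD68), near the share of all genes, and 0 fell. Their means ran from -0.025 to 0.087 in arrays labelled shFAM60A and from -0.086 to 0.015 in arrays labelled shControl. The 3′ minus 5′ signal of the ACTB control probe sets, a measure of RNA quality, overlapped between the labels. It was -0.012 ± 0.0094 in arrays labelled shFAM60A and 0.017 ± 0.033 in arrays labelled shControl (SD, n = 3 each). Each probe set is set to its own median, so these values compare arrays and do not show whether the RNA was intact. In RNA of whole cultures, fewer cells of a type and less RNA per cell cannot be told apart. The part of these markers and of RNA quality in the results below was not tested.

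Of the 10 BCL2 family genes, 9 differed between the labels, 6 of them higher and 3 lower in the arrays labelled shFAM60A (limma, adjusted p under 0.05). Over all 18132 genes 44.9% passed the same test, 19.8% as higher and 25.0% as lower, so a large background of differences surrounds this count. The values of the 3 arrays of one label did not overlap with those of the other in 9 of the 10 genes, against 53.2% of all genes. Among BH3-only genes 4 rose, 1 fell and 1 did not pass, among pore formers 1 rose and 1 fell, and among survival genes 1 rose and 1 fell. The median log2 difference was 0.16 for the 6 BH3-only genes, -0.16 for the 2 pore formers and 0.0051 for the 2 survival genes, beside -0.012 for all genes tested. Gene positions below are those of RefSeq on GRCh38.p14. Only PMAIP1 and BBC3 of the 10 passed a fold of 2, as did 217 higher and 53 lower genes of the whole table.

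**Figure D1:**
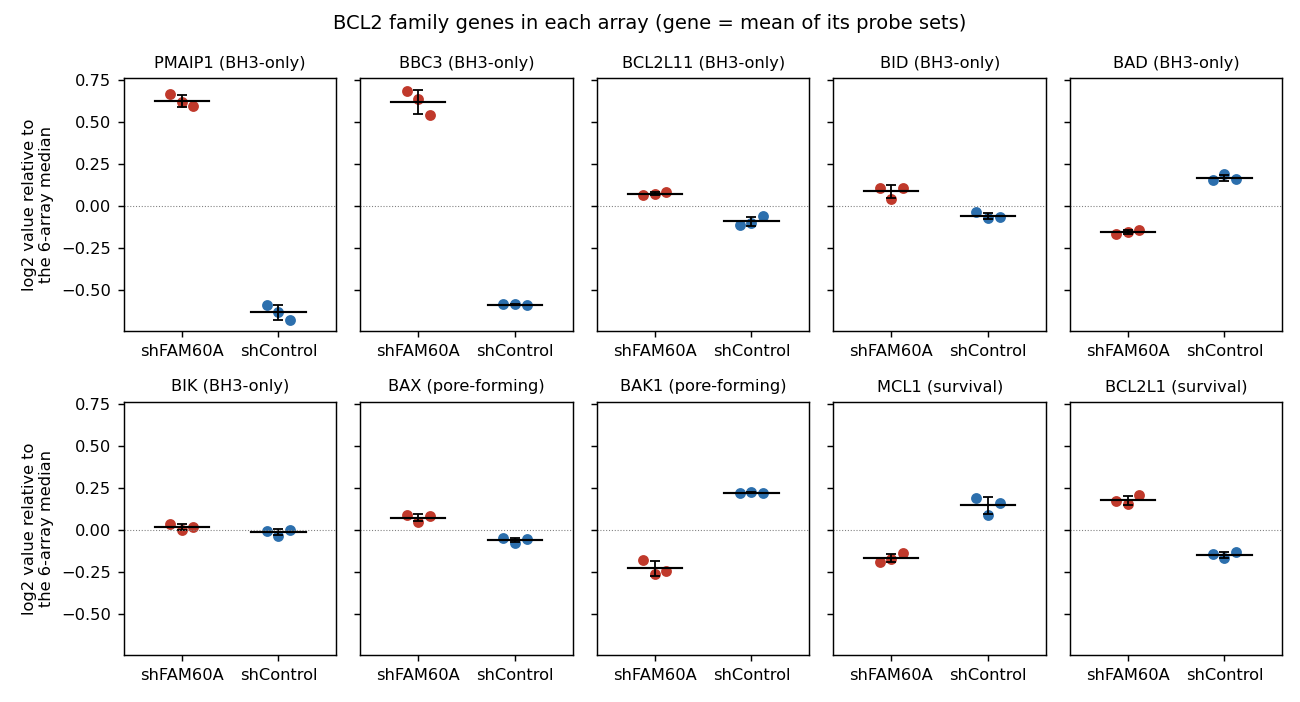
Log2 value of each of the 10 genes relative to its median over the 6 arrays (vertical axis), in the 3 arrays labelled shFAM60A (left, red) and the 3 labelled shControl (right, blue). Points are arrays, horizontal lines group means and bars 1 SD; PMAIP1 and BBC3 show the widest separation of the groups, BAD, BAK1 and MCL1 lie lower in the arrays labelled shFAM60A, and BIK overlaps.

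PMAIP1 (chromosome 18, 59899996 to 59904305) encodes NOXA, a BH3-only protein that binds MCL1 with preference and is induced by p53 and by stress on protein folding and amino acid supply. Its values were 0.67, 0.62 and 0.59 in the arrays labelled shFAM60A, against -0.59, -0.63 and -0.68 in the arrays labelled shControl. Every array labelled shFAM60A lay far above every array labelled shControl, with a gap many times the spread inside either group. The signal was 2.39-fold higher (95% confidence interval 2.25 to 2.54), and 1.26 ± 0.037 higher on the log2 scale (SE, n = 3 per group; limma, adjusted p = 9.61e-07). A difference at least this large was seen in 0.563% of all genes. Its 2 probe sets, 11724509_a_at and 11724510_at, gave log2 differences of 1.25 and 1.27, and both lay in the level class of 8 and more.

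BBC3 (chromosome 19, 47220824 to 47232860) encodes PUMA, which binds all main survival proteins of the family and is a classical p53 target. In the arrays labelled shFAM60A it had values of 0.68, 0.64 and 0.54, and in the arrays labelled shControl -0.58, -0.58 and -0.59. The control arrays were nearly identical in this mean, because its 2 probe sets deviated in opposite directions (SD 0.048 and 0.042 among the control arrays). In the mean the arrays labelled shFAM60A spread more, and the groups stood clear of each other. BBC3 was 2.31-fold higher (95% confidence interval 2.16 to 2.47), by 1.21 ± 0.041 on the log2 scale (SE, n = 3 per group; limma, adjusted p = 1.63e-06). Both of its probe sets passed, but they differed in size: 11727707_a_at gave 1.52 and 11727706_a_at 0.89. That gap of 0.63 between the probe sets (95% confidence interval 0.47 to 0.79) passed a limma fit of each probe set against the others of its gene (adjusted p = 0.00117), a test that was added after the data were seen. In that fit 18.6% of 38590 probe sets passed.

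BCL2L11 and BID rose by far less. BCL2L11 (chromosome 2, 111120914 to 111168445) encodes BIM, a strong activator of BAX and BAK1 that FOXO transcription factors induce. Its gene values were 0.067, 0.073 and 0.083 in the arrays labelled shFAM60A, against -0.11, -0.098 and -0.059 in the arrays labelled shControl. The groups did not overlap, and the rise was 1.12-fold, or 0.16 ± 0.031 on the log2 scale (SE, n = 3 per group; limma, adjusted p = 0.00337). This mean covers 14 probe sets from -0.069 to 0.39, of which 5 were higher, 0 were lower and 9 did not pass. The highest, 11759889_a_at at 0.39, was the only one in the level class of 8 and more, and 4 lay in the lowest class. None of the 14 passed the fit against the others of the gene at an adjusted p under 0.05 (smallest adjusted p = 0.0734).

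BID (chromosome 22, 17734138 to 17774665) links death receptors to mitochondria after it has been cut by caspase-8. Its values were 0.11, 0.045 and 0.11 in the arrays labelled shFAM60A, against -0.036, -0.073 and -0.064 in the arrays labelled shControl. Its lowest array labelled shFAM60A was still above its highest array labelled shControl. The rise was 1.11-fold, or 0.15 ± 0.033 on the log2 scale (SE, n = 3 per group; limma, adjusted p = 0.0090). Of its 4 probe sets 2 passed, at 0.16 and 0.28, and the other 2 gave 0.041 and 0.098.

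BAD and BIK did not share this rise. BAD (chromosome 11, 64269828 to 64284704), a BH3-only protein that growth factor signalling keeps inactive by phosphorylation, had values of -0.17, -0.15 and -0.14 in the arrays labelled shFAM60A, against 0.16, 0.19 and 0.16 in the arrays labelled shControl. It was 1.25-fold lower (95% confidence interval 1.19 to 1.31), with a difference in log2 of -0.32 ± 0.029 (SE, n = 3 per group; limma, adjusted p = 8.91e-05), and its 2 probe sets gave -0.30 and -0.35. BAD was thus the only one of the 6 BH3-only genes to fall. BIK (chromosome 22, 43110750 to 43129712) encodes a BH3-only protein of the endoplasmic reticulum. Its values of 0.033, -0.0013 and 0.020 in the arrays labelled shFAM60A overlapped with -0.0091, -0.034 and -7.2e-05 in the arrays labelled shControl. The log2 difference of BIK was 0.032 with a 95% confidence interval from -0.039 to 0.10 (limma, adjusted p = 0.455), although all 3 of its probe sets lay in the level class of 8 and more. A change in BIK as large as that of BAD lies outside this interval.

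Upstream DNA is shown for PMAIP1, the gene with the largest rise, and for BCL2L11, which rose little, so that the 2 can be compared. Each run is the 250 bases before the outermost RefSeq start of the gene (GRCh38.p14), 5′ to 3′ on the strand of the gene. Capitals mark matches, on either strand, to the core of the cyclic AMP response element (TGACG), the C/EBP-ATF element (TGATGNAA), the E-box (CACGTG), the FOXO motif (GTAAACA) or the decamer of p53 response elements. PMAIP1 lies at chr18:59899746-59899995 on the plus strand, and BCL2L11 at chr2:111120664-111120913 on the plus strand.
PMAIP1: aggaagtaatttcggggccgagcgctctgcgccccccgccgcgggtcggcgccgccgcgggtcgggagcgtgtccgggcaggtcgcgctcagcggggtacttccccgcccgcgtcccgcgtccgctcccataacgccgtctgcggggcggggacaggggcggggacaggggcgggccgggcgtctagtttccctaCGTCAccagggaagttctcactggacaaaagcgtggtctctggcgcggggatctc
BCL2L11: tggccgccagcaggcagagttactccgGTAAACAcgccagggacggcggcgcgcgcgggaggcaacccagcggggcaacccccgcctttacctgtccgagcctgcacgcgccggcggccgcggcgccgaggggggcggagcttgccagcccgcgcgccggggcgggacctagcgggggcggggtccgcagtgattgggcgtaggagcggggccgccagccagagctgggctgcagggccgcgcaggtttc

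The PMAIP1 stretch held 1 match, the cyclic AMP response core on the minus strand from 55 to 51 bases before the start, a motif that 21.2% of 35116 RefSeq windows of this length hold. The BCL2L11 stretch held the FOXO motif from 223 to 217 bases before the start, as did 2.98% of the windows. Neither held the C/EBP-ATF element, which is in 3.14% of the windows. Matches are letters in these windows and say nothing about binding. Both stretches are rich in G and C, with 72.8% in PMAIP1 and 76.8% in BCL2L11, beside a median of 58.0% for all windows. The only BBC3 window belongs to a start inside the annotated gene and is not shown.

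The pore formers went in opposite directions. BAX (chromosome 19, 48954875 to 48961798), which moves from the cytosol to mitochondria when activated, had values of 0.087, 0.049 and 0.083 in the arrays labelled shFAM60A, against -0.049, -0.076 and -0.055 in the arrays labelled shControl. The groups stood apart by a small margin, and the rise was 1.10-fold, or 0.13 ± 0.030 on the log2 scale (SE, n = 3 per group; limma, adjusted p = 0.0083). Of its 2 probe sets, 11759444_x_at passed at 0.16 and 11742537_a_at did not at 0.10 (adjusted p = 0.0743). Names ending in x_at mark probe sets with probes that can also pair with other transcripts, and without such probe sets the gene lost its call (log2 difference 0.10, adjusted p = 0.0519). The call of BAX therefore rests on the probe set named x_at.

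BAK1 (chromosome 6, 33572552 to 33580276), which sits in the outer membrane of mitochondria, fell the most of the 10 genes. Its values were -0.18, -0.26 and -0.25 in the arrays labelled shFAM60A, against 0.22, 0.23 and 0.22 in the arrays labelled shControl. In this mean the control arrays agreed closely, and every array labelled shFAM60A lay well below them. The single probe sets of BAK1 spread more among the control arrays, with SDs from 0.033 to 0.12. BAK1 was 1.37-fold lower (95% confidence interval 1.29 to 1.44), with a difference in log2 of -0.45 ± 0.034 (SE, n = 3 per group; limma, adjusted p = 3.81e-05). A fall at least this large was seen in 5.78% of all genes. Of its 5 probe sets, 4 fell by 0.31 to 0.64 on the log2 scale. The fifth, 11762913_a_at, gave -0.072, did not pass (adjusted p = 0.417) and was the only one in the lowest level class.

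The probe sets of BAK1 also differed from one another beyond the spread between arrays. Against the mean of the others, 11762913_a_at was higher by 0.47 (limma, adjusted p = 0.00387), while 11732515_x_at and 11746208_a_at were lower by 0.23 each (adjusted p = 0.0195 and 0.0184). The 2 lower calls were lost without 11762913_a_at (adjusted p = 0.0938 and 0.0828), and without it the log2 difference of BAK1 was -0.54. Leaving out 1 array also ended them: the call of 11732515_x_at was lost without shFAM60A replicate 1, 2 or 3 or shControl replicate 1 (adjusted p from 0.0528 to 0.0631). That of 11746208_a_at was lost without shFAM60A replicate 2 or 3 or shControl replicate 3 (adjusted p from 0.0555 to 0.0638). RefSeq lists 2 pseudogenes named after BAK1, and signal from such copies cannot be told apart here. Without the x_at probe set the fall of BAK1 was -0.40 and still passed.

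Upstream DNA of the pore formers is shown because they moved apart, with the same motifs in capitals as above. The 250 bases before the start of BAX lie at chr19:48954625-48954874 on the plus strand, and those of BAK1 at chr6:33580277-33580526 on the minus strand, both printed 5′ to 3′ on the strand of the gene (RefSeq, GRCh38.p14).
BAX: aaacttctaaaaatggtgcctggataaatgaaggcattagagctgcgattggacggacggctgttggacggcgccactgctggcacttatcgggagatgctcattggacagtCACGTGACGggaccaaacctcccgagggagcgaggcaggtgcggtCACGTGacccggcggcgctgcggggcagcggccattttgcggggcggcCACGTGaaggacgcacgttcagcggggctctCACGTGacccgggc
BAK1: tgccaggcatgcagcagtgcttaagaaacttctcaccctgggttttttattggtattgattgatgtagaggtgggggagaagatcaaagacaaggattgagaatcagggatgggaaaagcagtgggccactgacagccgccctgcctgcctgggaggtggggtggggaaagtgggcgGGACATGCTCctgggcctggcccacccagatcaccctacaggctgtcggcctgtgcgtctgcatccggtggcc

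The BAX stretch held the E-box 4 times, and 6.34% of all windows hold it at least 1 time. The first of these E-boxes overlaps a cyclic AMP response core by 2 bases. The BAK1 stretch held a single p53 decamer from 73 to 64 bases before the start, found in 5.57% of all windows, and no E-box. Such a decamer is only part of a p53 response element. None of the 4 printed stretches held the C/EBP-ATF element.

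The survival genes went in opposite directions too. MCL1 (chromosome 1, 150574558 to 150579610), a short-lived protein that holds BAK1 and is neutralised by NOXA, had values of -0.19, -0.17 and -0.14 in the arrays labelled shFAM60A, against 0.19, 0.091 and 0.16 in the arrays labelled shControl. The second control array was the lowest of its group and still lay above all arrays labelled shFAM60A. MCL1 was 1.24-fold lower (95% confidence interval 1.17 to 1.32), with a difference in log2 of -0.31 ± 0.037 (SE, n = 3 per group; limma, adjusted p = 3.53e-04).

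The 6 probe sets of MCL1 ran from -0.77 to 0.0080. The largest fall was that of 11715484_a_at, at -0.77 (95% confidence interval -0.90 to -0.64), whereas 11715485_a_at gave 0.0080 (-0.13 to 0.15), and both lay in the level class of 8 and more. Against the mean of the other 5, the first was lower by 0.55 (limma, adjusted p = 0.00187) and the second higher by 0.39 (adjusted p = 0.00357). MCL1 is known to be spliced into a long form that protects cells and shorter forms that do not. Which transcripts these probe sets read was not analysed here, so the fall of MCL1 is that of a mean over probe sets of unequal response.

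BCL2L1 (chromosome 20, 31664452 to 31723963), whose long product BCL-XL protects cells and whose short splice product does not, had values of 0.17, 0.15 and 0.21 in the arrays labelled shFAM60A, against -0.14, -0.17 and -0.13 in the arrays labelled shControl. All arrays labelled shFAM60A lay above all those labelled shControl. The rise was 1.25-fold (95% confidence interval 1.19 to 1.32), or 0.32 ± 0.031 on the log2 scale (SE, n = 3 per group; limma, adjusted p = 1.22e-04). All 3 probe sets rose, by 0.39, 0.36 and 0.22, and none of them differed from the others of the gene past the threshold (smallest adjusted p = 0.117).

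**Figure D2:**
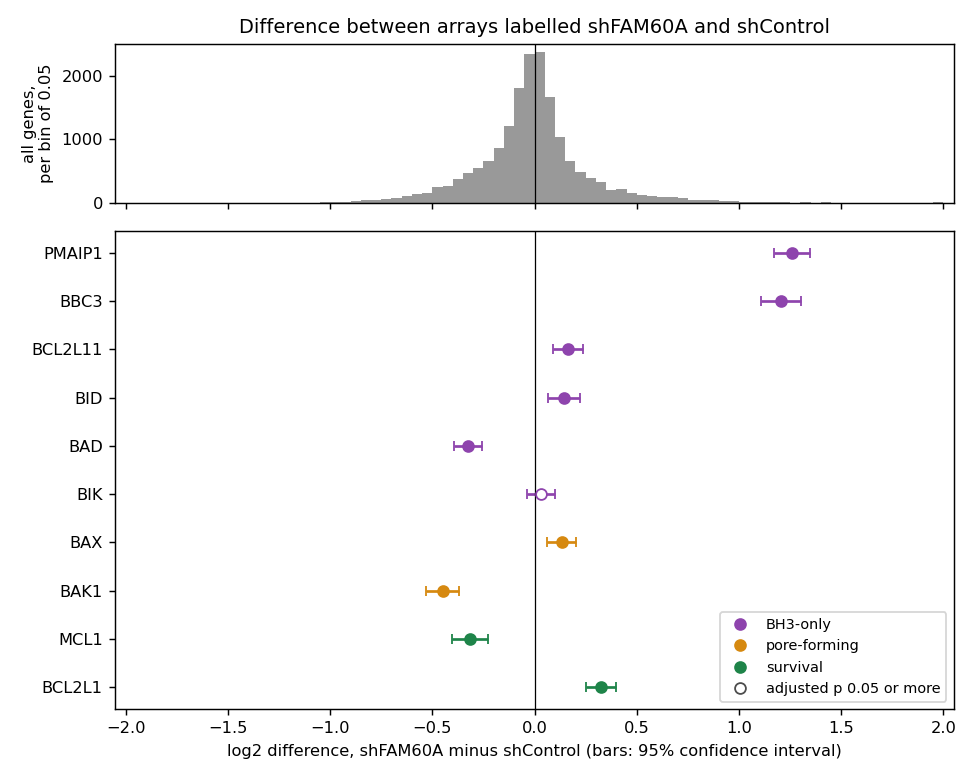
Log2 difference between arrays labelled shFAM60A and shControl (horizontal axis) for all 18132 genes as a histogram (top; values beyond the axis stand in the end bins) and for the 10 genes with 95% confidence intervals (bottom; colour gives the class, open symbol an adjusted p of 0.05 or more). PMAIP1 and BBC3 stand in the far right tail at 1.26 and 1.21, BAK1 lies lowest at -0.45, and each class holds members on both sides of 0.

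Set side by side within an array, the transcripts of the partners NOXA and MCL1 moved apart. The value of PMAIP1 minus that of MCL1 was 0.86, 0.79 and 0.73 in the arrays labelled shFAM60A, against -0.78, -0.72 and -0.83 in the arrays labelled shControl. This gap changed by 1.57 on the log2 scale, which compares changes and not levels, since each gene is set to its own median. For BBC3 minus BCL2L1 the values were 0.51, 0.48 and 0.34 in the arrays labelled shFAM60A, against -0.44, -0.42 and -0.46 in the arrays labelled shControl, a change of 0.88 that is smaller because BCL2L1 also rose. BAD minus BCL2L1 went the other way, with -0.34, -0.31 and -0.35 in the arrays labelled shFAM60A, against 0.30, 0.36 and 0.29 in the arrays labelled shControl, a change of -0.65. BAX minus BAK1 was 0.26, 0.31 and 0.33 in the arrays labelled shFAM60A, against -0.27, -0.30 and -0.27 in the arrays labelled shControl. These pairs are given as a description, with no test.

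The mean of the 6 BH3-only genes was 0.23, 0.20 and 0.20 in the arrays labelled shFAM60A, against -0.20, -0.21 and -0.20 in the arrays labelled shControl. For the pore formers it was -0.045, -0.11 and -0.081 in the arrays labelled shFAM60A and 0.086, 0.075 and 0.081 in the arrays labelled shControl. The mean of the survival genes was -0.010, -0.010 and 0.033 in the arrays labelled shFAM60A, against 0.023, -0.038 and 0.013 in the arrays labelled shControl. These last values overlap because the fall of MCL1 and the rise of BCL2L1 are of like size. The higher mean of the BH3-only class comes mostly from PMAIP1 and BBC3, as its median of 0.16 against its mean difference of 0.41 shows.

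Over the single probe sets, 25 of 43 passed the test, where 40.8% of all probe sets did. Of the 25, 15 were higher and 10 were lower, against 18.1% and 22.7% of all probe sets. The arrays of the 2 labels did not overlap in 29 of the 43, against 50.4% of all probe sets. The share was lowest in the lowest level class: 11 of 18 passed in the class of 8 and more, 13 of 20 in that of 4 to 8, and 1 of 5 in the lowest. In all probe sets of these classes 62.5%, 44.5% and 10.9% passed. In no gene of the 10 did probe sets pass in both directions, and 7 of the 43 differed from the others of their gene, a share near the 18.6% of all probe sets in that fit. Those 7 belonged to BBC3, BAK1 and MCL1, and the pair of BBC3 is a single contrast that enters with both signs.

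**Figure D3:**
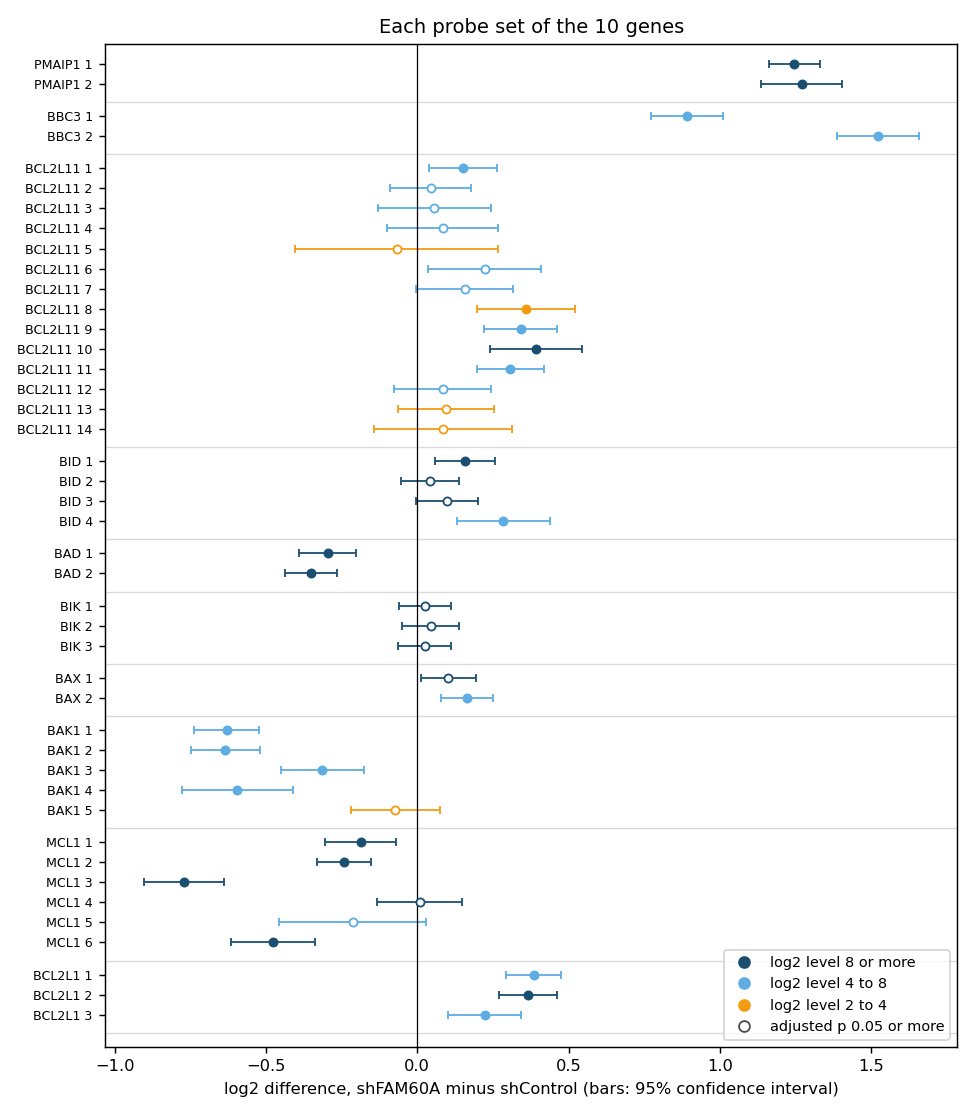
Log2 difference between arrays labelled shFAM60A and shControl with its 95% confidence interval for each of the 43 probe sets (rows, numbered within a gene in the order of their identifiers). Colour gives the level class and an open symbol an adjusted p of 0.05 or more; the probe sets of MCL1 run from -0.77 to 0.0080 while those of PMAIP1 sit together at 1.25 and 1.27.

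Other members of the family are set beside all genes, of which 19.8% were higher and 25.0% lower. Of 4 further survival genes, 0 rose and 1 fell, the fall at the share of all genes. It was BCL2L2, which encodes BCL-W, with a log2 difference of -0.31 (limma, adjusted p = 7.60e-04). BCL2 itself gave -0.090 and did not pass (adjusted p = 0.104), with 0 of its 6 probe sets in the level class of 8 and more and 3 in the lowest. BCL2A1 and BCL2L10 had all of their probe sets in the lowest class, where 10.9% of all probe sets passed. Of 3 further BH3-only and effector genes 2 rose and 0 fell. BOK, a relative of BAX and BAK1, rose by 0.29 (adjusted p = 2.39e-04) and the BH3-only gene BMF by 0.17 (adjusted p = 0.0153), whereas HRK gave 0.025 (adjusted p = 0.772).

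Larger differences were measured among the atypical relatives. Of 7 measured, 2 rose and 3 fell, where 19.8% of all genes were higher and 25.0% lower. The list median was -0.085 on the log2 scale. BCL2L15 rose by 1.14 (limma, adjusted p = 2.79e-06) and BCL2L14 by 0.95 (adjusted p = 1.92e-04). BNIP3L, a receptor for the removal of mitochondria by autophagy, fell by 0.52, BCL2L12 by 0.43 and BCL2L13 by 0.17. Thus BCL2L15 was the only other family member, of 14 tested beside the 10, with a rise of over 2-fold.

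Most transcription factors known to induce BH3-only genes rose with the same label. Among 10 measured, 8 were higher, 1 was lower and 1 missed the threshold, where 19.8% of all genes were higher and 25.0% lower, and the list median was 0.46 on the log2 scale, beside -0.012 for all genes. MYC rose by 1.68, and FOXO3, which induces BCL2L11 and BBC3, by 0.64 (limma, adjusted p = 8.92e-06). DDIT3, which encodes the stress factor CHOP, rose by 0.61 (adjusted p = 9.10e-06) and ATF4, an inducer of PMAIP1 when amino acids run short or the endoplasmic reticulum is stressed, by 0.49 (adjusted p = 2.03e-05). The 1 gene that fell was E2F1, by 0.46. Of 13 p53 target genes outside the 10, 4 rose and 5 fell, and the list median was 0.018. GDF15 rose by 2.16 and SESN2 by 0.71, while ZMAT3 fell by 0.61 (limma, adjusted p = 6.01e-05). The others that rose were CDKN1A, by 0.31, and AEN, by 0.24. Those that fell besides ZMAT3 were RRM2B (-0.41), MDM2 (-0.36), SESN1 (-0.31) and TNFRSF10B (-0.26). Among the 10 genes, PMAIP1, BBC3 and BAX are known as p53 targets and rose, BAX with a call that rests on its x_at probe set. The 10 genes were not sorted by whether p53 induces them, so these names are not a full list. BAK1, whose printed stretch held a single p53 decamer, fell. Whether p53 or any of the factors named here had a part in these differences was not tested.

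Apoptosome and caspase genes, which act before or after the pore, went in both directions. Of 10 apoptosome and caspase genes, 2 rose, 3 fell and 5 did not pass, a share near the 44.9% of all genes that passed, and the list median was -0.038 on the log2 scale. CASP10, an initiator caspase of death receptors, rose by 0.24 (limma, adjusted p = 0.00128) and CYCS, which encodes cytochrome c, by 0.21 (adjusted p = 0.00208), whereas CASP9, the initiator caspase of the apoptosome, fell by 0.20 (adjusted p = 0.0047). The other two that fell were CASP2, by 0.16, and CASP8, by 0.16. Of 7 IAP genes and their antagonists, 0 rose and 5 fell, where 25.0% of all genes were lower, and the list median was -0.43. They included both IAP genes and genes of their mitochondrial antagonists. BIRC5, which acts in mitosis, fell by 0.67, BIRC2 by 0.61 and XIAP by 0.24. The antagonists HTRA2 and DIABLO fell by 0.46 and 0.43.

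Among 8 partners of the family at the outer membrane, 1 rose and 7 fell, where 19.8% of all genes were higher and 25.0% lower, and the list median was -0.29 on the log2 scale. VDAC1, a channel of the outer membrane, rose by 0.70 (limma, adjusted p = 6.25e-06), while the fission protein FIS1 fell by 0.46 and VDAC3 by 0.37. Of 6 genes that control the turnover of MCL1 protein, 1 rose and 3 fell. The ubiquitin ligase subunits BTRC and FBXW7 fell by 0.52 and 0.44, the deubiquitinase USP9X fell by 0.12, and the deubiquitinase USP13 rose by 0.24. These arrays measure RNA, so protein amounts of MCL1 and its regulators are not measured here.

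**Figure D4:**
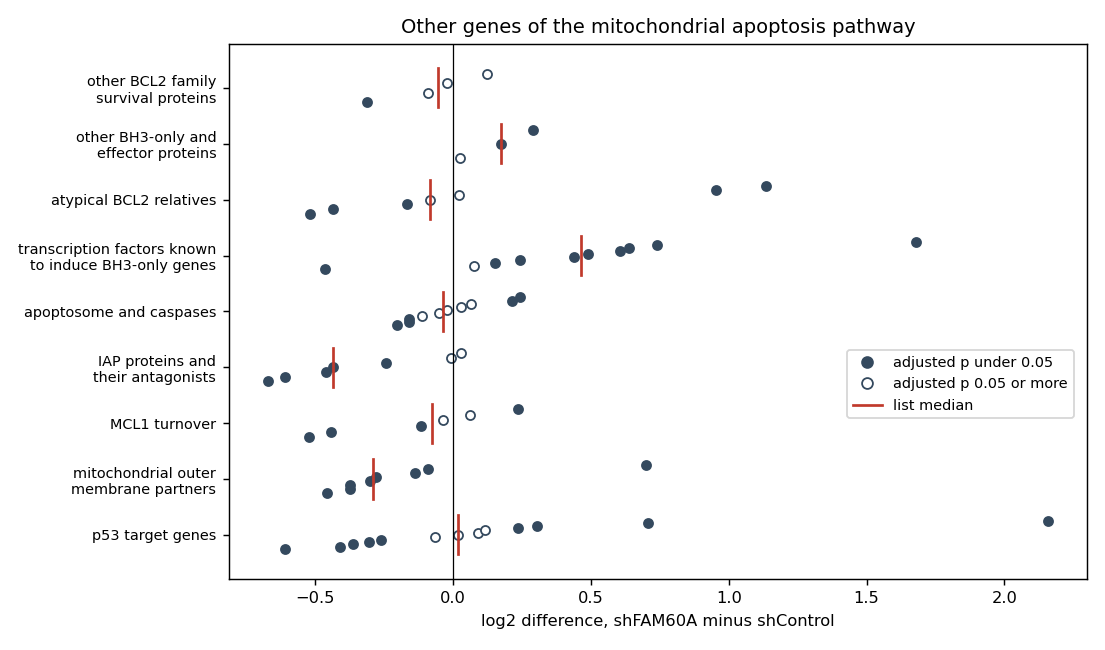
Log2 difference between arrays labelled shFAM60A and shControl (horizontal axis) of each other pathway gene (points, filled where the adjusted p is under 0.05), by list, with the list median as a red line. Transcription factors that induce BH3-only genes lie mostly to the right, with a median of 0.46, and IAP genes with their antagonists lie to the left, with a median of -0.43.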

How the data were processed

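Total RNA from the 6 samples was read on Affymetrix arrays. The authors deposited log2 values of 49395 probe sets, which per the submitters' processing notes are RMA output; the version is not given in the sources used. Every probe set had a median of 0 over the 6 arrays (to within 5e-07), so levels were removed; base 2 is the usual output of RMA and was assumed.

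Gene symbols came from the platform annotation (44994 with 1 symbol, 1832 with several, 2569 with none; 102 control probe sets left out). A gene was the mean of its probe sets with 1 symbol, which gave 18132 genes. Groups followed the titles. Differences were tested in R 4.3.3 with limma 3.58.1 (lmFit, then eBayes), adjusted by Benjamini-Hochberg over all genes, or over all 49293 probe sets, with a threshold of 0.05. Precision is limited by the number of arrays. The fit was tested on simulated data. Level classes come from the rounding step of single-precision values, compared within a tolerance of 0.1 steps, and refer to the arrays with the lowest level.

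The genes and lists were chosen with earlier results of these data known. Named were the 10 genes and SINHCAF, up to 3 genes per other list with the smallest p past the threshold, and BCL2, BCL2L2, BMF, HRK, BOK, ATF4 and DDIT3. Genes that complete a small count were named after their values were seen, as were BCL2A1, BCL2L10, TSHR, DUOX2, DIO1, KRT20 and CDH17. Of 110 genes in all lists, 8 were not analysed here. Promoter windows of 8 of the 10 genes came from RefSeq (GRCh38.p14). Alternatives were other normalizations, summaries and filters, a replicate block and leaving out each array.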

Additional observations from a re-analysis of the deposited data

How the results depend on the processing

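Over 15 alternatives (3 normalizations, 2 summaries of a gene, 2 filters on probe sets, robust eBayes, a replicate block and leaving out each array in turn), the 10 genes kept their direction, and the calls of all but BAX their side of the threshold. Between 8 and 9 of the 10 genes passed, and with any 1 array left out 9 passed. The number of all genes past the threshold ran from 6999 to 8412 beside 8136. The 3595 higher and 4541 lower genes became 4063 and 4049 after cyclic loess and 3929 and 4183 after quantile normalization. All probe sets past it were 12872 without those named x_at or s_at, beside 20127, where fewer probe sets were tested. The median log2 difference of the BH3-only genes was 0.18 after cyclic loess and 0.34 with only the most variable probe set of a gene, beside 0.16. That of the pore formers and survival genes together was -0.24 with only the most variable probe set and -0.13 without probe sets named x_at or s_at, beside -0.090. With only the most variable probe set BCL2L11 gave 0.39, BID 0.28 and MCL1 -0.77. The cause of these shifts was not tested. Probe sets of the 10 genes that differed from the rest of their gene numbered 5 to 8 under the alternatives, beside 7, with both BAK1 calls of a larger fall lost in some.

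Under the replicate block all genes past the threshold were 8170 and 9 of the 10 genes passed, so the block changed no call among them. Deviations of arrays that share a replicate number correlated at 0.16, 0.059 and 0.078, so the numbers were not taken to pair the samples, although each array correlated best with its own number. Depth of signal limits BAK1, BCL2L11 and BCL2, which have probe sets in the lowest level class.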
